A study of Mus musculus with 8 samples.

Results

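The 10 genes described here encode transcription factors that specify or maintain the retinal pigment epithelium (RPE) and the eye field it derives from: Mitf, Otx2, Tfec, Sox9, Pax6, Lhx2, Six3, Rax, Vax2 and Zfp503. They were chosen by symbol for these roles, with earlier results of these data known. All 10 were found among the 31053 gene identifiers of the count tables. RNA came from RPE of C57/Bl6 mice at postnatal day 29 (P29), with 4 libraries made from knockout (Bbs8-/-) animals and 4 from wild-type (Bbs8+/+) littermates. The Bbs8 deletion is carried in the whole body and is not limited to the RPE, and Bbs8, listed as Ttc8, encodes a subunit of the BBSome, a complex that moves proteins into and out of cilia. RPE sheets were peeled from the choroid after trypsin treatment of eyecups from which cornea, lens and retina had been taken out. The labels leave sex undetermined, and by the study's account replicates were separate animals.

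The RPE and the neural retina arise from the same optic vesicle. Mitf and Otx2 drive pigment and other RPE genes, while Pax6, Lhx2, Six3 and Rax act earlier in the eye field and later also in the neural retina. Several of these factors therefore have a place in adult cells of both tissues: Otx2 and Rax in photoreceptors, Sox9 and Lhx2 in Müller glia, and Pax6 in amacrine and ganglion cells.

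Libraries were made with the QuantSeq 3′ protocol, which reads the end of each polyadenylated transcript, so a level is not divided by gene length. Levels are given as CPM, each gene's share of the library's counts brought to a common scale and adjusted by TMM factors, and n is 4 libraries per genotype for each mean with its SD. Counts on genes came to between 2389835 and 3093428 per library, and 3 counts, taken as the smallest signal, correspond to 1.02 to 1.23 CPM. The reads were counted without molecular identifiers, so this floor covers counting error only.

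The deleted gene was checked in every library. Ttc8 had 105, 142, 144 and 116 counts in wild-type RPE and 15, 5, 14 and 15 in knockout RPE. Each library thus lay on the side its label gives. On the log2 scale the difference was -3.34 with a standard error of 0.294 (quasi-likelihood F test of edgeR with Benjamini-Hochberg adjustment, adjusted p = 2.48e-11).

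RPE genes were abundant in both genotypes. Of 12 RPE marker genes 11 were tested: Ttr, Slc16a8 and Rrh rose, Rpe65, Rdh5 and Stra6 fell, and 5 were not called. The share called was 54.5%, against 12.3% of all genes tested. The call for Rrh was lost with DESeq2 and without Bbs8+/+ replicate 4 or Bbs8-/- replicate 1, 2 or 3 (log2 fold changes of 0.59, 0.54, 0.55 and 0.54, against 0.56 with all), and without Bbs8+/+ replicate 1 the value was 0.30. Among those not called, Rgr, a retinal G protein-coupled receptor of the RPE, was at 4715 ± 175 CPM (SD, n = 4) in Bbs8+/+ and 4687 ± 129 CPM in Bbs8-/- libraries, and Rlbp1, a retinoid-binding protein shared with Müller glia, was at 1839 ± 61.5 and 1889 ± 56.7 CPM. Best1 and Cldn19, which also mark the RPE, were close to absent, with at most 5 counts of Best1 and at most 3 of Cldn19 in any library. The 12 genes summed to between 36418 and 37520 CPM in Bbs8+/+ and between 44908 and 48265 CPM in Bbs8-/- libraries. Without the most abundant, the transthyretin gene Ttr, the sum was 15500 to 16515 CPM in Bbs8+/+ and 14862 to 15257 CPM in Bbs8-/- libraries, so that the higher sum came from Ttr.

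The sex-linked genes went against a library holding the RNA of 1 animal. Xist, which is transcribed from the inactive X chromosome of females, had 210, 179, 150 and 111 counts in Bbs8+/+ and 517, 573, 499 and 598 in Bbs8-/- libraries. The Y-linked gene Ddx3y had 320, 255, 210 and 198 counts in Bbs8+/+ and 183, 217, 216 and 191 in Bbs8-/- libraries. Transcripts of both kinds were thus present in all 8 libraries, a pattern that RNA of a lone male or a lone female does not give. The ratio of Xist to the summed counts of 4 Y-linked genes was 0.323 to 0.457 in Bbs8+/+ and 1.498 to 2.03 in Bbs8-/- libraries. Genotype and this ratio cannot be told apart in these data, and the p-values measure the spread between these libraries.

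Of the 10 regulators, 9 passed the filter of 1 CPM in at least 4 libraries. Otx2, Sox9, Pax6 and Zfp503 rose in Bbs8-/- RPE and Rax fell, so that 5 of the 9 were called at an adjusted p under 0.05. Among all 12889 genes tested 12.3% were called, with 5.46% up and 6.80% down. The regulators were chosen with earlier results of these data known, so these shares stand side by side as a description only. Mitf, Lhx2, Six3 and Vax2 did not pass the threshold, and Tfec was not tested. For 6 of the 9, those called and Lhx2, all libraries of a genotype lay on the same side of all libraries of the other, against 16.0% of all genes tested. The median log2 fold change of the 9 was 0.30, and that of all genes tested was 0.02.

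**Figure D1:**
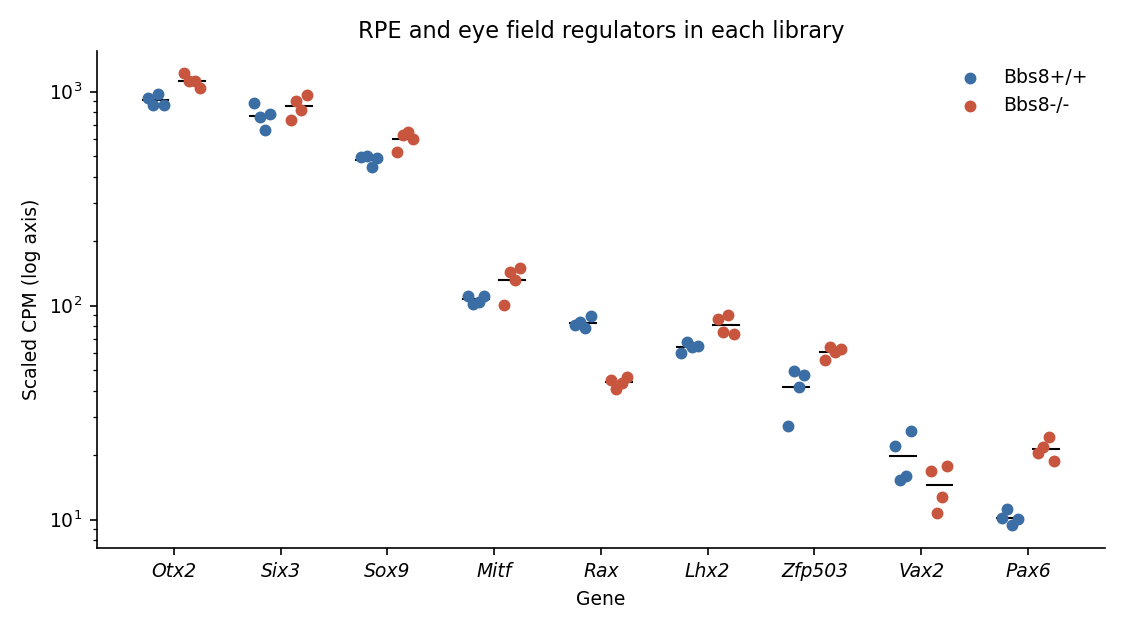
Scaled CPM (log axis) of the 9 tested regulators in each of the 8 libraries, with a point for each library and a bar at the mean of each genotype. Otx2, Six3 and Sox9 lie highest, and the points of Otx2, Sox9, Pax6, Zfp503, Rax and Lhx2 form separate groups by genotype.

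The levels spanned a wide range. In Bbs8+/+ RPE the order was Otx2 (910 ± 54.6 CPM, SD, n = 4), Six3 (772 ± 90.1), Sox9 (480 ± 25.6), Mitf (107 ± 4.61), Rax (83.3 ± 4.42), Lhx2 (64.2 ± 3.13), Zfp503 (41.6 ± 10.0), Vax2 (19.8 ± 5.12) and Pax6 (10.2 ± 0.740), with Tfec at 0 counts. The libraries of Otx2 and Six3 overlapped, and no other pair of neighbours in this order did. In Bbs8-/- RPE the first 4 places were held by the same genes in the same order, with no overlap between neighbours. Rax, the fifth in Bbs8+/+ libraries, stood below Lhx2 and Zfp503 in Bbs8-/- libraries, and Pax6 stood above Vax2.

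Mitf, the basic helix-loop-helix factor that gives the RPE its pigment programme, lies on chromosome 6 from 97807052 to 98021349 (GRCm38, forward strand). Its counts were 329, 274, 255 and 298 in Bbs8+/+ and 245, 400, 328 and 430 in Bbs8-/- libraries. At 101, 143, 131 and 150 CPM, Bbs8-/- replicate 1 lay below every Bbs8+/+ library and the remaining 3 lay above every one of them. The log2 fold change was 0.30 (standard error 0.125) and was not called, with an adjusted p of 0.132 in edgeR. Without Bbs8-/- replicate 1 it was 0.40 and passed the threshold, with an adjusted p of 0.0247, and it also passed with scaling by library size alone (0.39, adjusted p = 0.0363). Over all alternatives the adjusted p ran from 0.0247 to 0.345.

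RefSeq promoter windows (GRCm38.p6), which run from 250 bases before to 50 bases after a start site, were found for 7 of the 10 regulators. Mitf has 3 of them and Otx2 has 4. They were searched on both strands for the E-boxes CACGTG and CATGTG that factors of the Mitf family bind, for TAATCC, bound by Otx factors, and for the homeodomain core TAATTA. Of all 32851 windows 7.15% held CACGTG, 14.2% CATGTG, 7.06% TAATCC and 5.29% TAATTA. Matches were found in 2 windows of Mitf and in 2 of Otx2, and in none of those of Tfec, Pax6, Lhx2, Six3 and Zfp503. Shown are the 250 bases before the most downstream of the 3 RefSeq starts of Mitf (chr6:97991533-97991782, forward strand). Those before the most upstream of the 4 RefSeq starts of Otx2 (chr14:48667645-48667894, reverse strand) follow. These genes were taken because they rank among the regulators of the RPE pigment programme and hold matches outside annotated exons. Capitals mark the matches, which describe the letters and not a bound site.
Mitf: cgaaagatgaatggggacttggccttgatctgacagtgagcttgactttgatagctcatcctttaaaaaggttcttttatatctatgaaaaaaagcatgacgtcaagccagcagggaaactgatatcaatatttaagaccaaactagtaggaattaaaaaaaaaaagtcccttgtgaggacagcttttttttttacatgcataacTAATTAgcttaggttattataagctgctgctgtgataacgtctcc
Otx2: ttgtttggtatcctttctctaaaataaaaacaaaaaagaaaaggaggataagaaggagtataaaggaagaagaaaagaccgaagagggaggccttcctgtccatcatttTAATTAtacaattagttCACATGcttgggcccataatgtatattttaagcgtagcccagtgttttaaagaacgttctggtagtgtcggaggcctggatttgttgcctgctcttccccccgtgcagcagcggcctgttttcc
The match in Mitf is TAATTA. In Otx2 they are TAATTA and, on the opposite strand, CATGTG. Reads from the ends of transcripts do not tell which start site was used. Whether the RPE uses the start behind either stretch is therefore not known from these data.

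Tfec, a member of the Mitf family known from the RPE, was at the limit of detection. It had 0 counts in every wild-type library and 3, 1, 0 and 0 in the knockout libraries, so no difference could be measured at this depth. The paralogs Tfeb and Tfe3, both regulators of lysosomal genes, were present at 6.02 ± 1.14 and 24.0 ± 6.51 CPM (SD, n = 4) in Bbs8+/+ and 8.46 ± 3.82 and 28.5 ± 3.78 CPM in Bbs8-/- RPE. Neither was called, with adjusted p of 0.569 and 0.594 in edgeR.

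Otx2, a homeodomain factor that acts with Mitf in the RPE and also specifies photoreceptors, lies on chromosome 14 from 48657677 to 48673819 on the reverse strand. It had 2771, 2325, 2382 and 2321 counts in Bbs8+/+ and 2964, 3116, 2808 and 2981 in Bbs8-/- libraries. All Bbs8-/- libraries, at 1042 to 1217 CPM, lay above all Bbs8+/+ libraries, at 863 to 974 CPM. The rise was 1.24-fold, which is 0.30 on the log2 scale with a standard error of 0.0701 (edgeR, adjusted p = 0.00201). It was called under every alternative run, with adjusted p between 5.83e-05 and 0.0162.

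The antisense gene Otx2os1 shares 154 exon bases with Otx2. Its counts were 150, 123, 108 and 143 in Bbs8+/+ and 188, 249, 219 and 207 in Bbs8-/- libraries, and its log2 fold change was 0.75 (adjusted p = 0.000407, edgeR). Whether reads were counted by strand is not given in the sources used here. If strand was ignored, reads from the shared stretch would be set aside as ambiguous and counted for neither gene. Reads set aside as ambiguous made up 0.244% to 0.296% of a library. Gm49154, on the same strand as Otx2, shares 168 exon bases with it and was not in the count tables. Reads of Gm49154 from that stretch could be counted as Otx2, which was not tested.

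The paralog Otx1 was low, at 7.45 ± 1.28 CPM (SD, n = 4) in Bbs8+/+ and 10.9 ± 2.80 CPM in Bbs8-/- RPE, and was not called. Crx, the paralog that drives photoreceptor genes, moved the other way from Otx2. It had 1227, 930, 990 and 1041 counts in Bbs8+/+ and 551, 585, 502 and 518 in Bbs8-/- libraries, with no overlap, and a log2 fold change of -0.93 (adjusted p = 8.29e-10, edgeR). Otx2 counts were 2.23 to 2.50 times those of Crx in Bbs8+/+ libraries and 5.33 to 5.75 times in Bbs8-/- libraries, a ratio taken within each library that needs no scaling.

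Sox9, an HMG-box factor that works with Mitf and Otx2 on visual cycle genes in the RPE, lies on chromosome 11 from 112782224 to 112787760. It had 1455, 1334, 1082 and 1315 counts in Bbs8+/+ and 1265, 1755, 1615 and 1727 in Bbs8-/- libraries. After scaling the lowest Bbs8-/- library was replicate 1 at 519 CPM, still above the highest Bbs8+/+ library at 498 CPM. Sox9 rose 1.25-fold, which is 0.32 on the log2 scale with a standard error of 0.0817 (edgeR, adjusted p = 0.00577). The call held under every alternative run, with adjusted p from 0.000381 to 0.0365.

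The proportions of Sox9 and Otx2 to Mitf within a library did not separate the genotypes. The log2 ratio of Otx2 to Mitf averaged 3.09 ± 0.107 (SD, n = 4) in Bbs8+/+ and 3.11 ± 0.346 in Bbs8-/- libraries, and that of Sox9 to Mitf 2.16 ± 0.0844 and 2.20 ± 0.164. The differences, 0.03 and 0.04, were smaller than the SD of either group.

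Sox9 is also a gene of Müller glia. Of 7 Müller glia markers, Glul, Dkk3 and Crym rose and 4 were not called (42.9% called, against 12.3% of all genes tested). The call for Crym was lost with limma-voom, with the replicate block, with 1 other scaling and 1 other filter, and without any library other than Bbs8-/- replicate 3 (0.86 to 1.28, against 1.09 with all). Their summed level was 1158, 1279, 1356 and 1341 CPM in Bbs8+/+ and 1926, 1786, 1893 and 1839 CPM in Bbs8-/- libraries, most of it Glul, a glutamine synthetase gene that the RPE can express as well. Aqp4 and Kcnj10, which define Müller glia, were at 1.52 ± 1.11 and 0.951 ± 1.00 CPM (SD, n = 4) in Bbs8+/+ RPE. In Bbs8-/- RPE they were at 5.85 ± 4.84 and 2.90 ± 2.29 CPM. Neither was called, and both overlapped between genotypes. The ratio of Sox9 to Glul overlapped between genotypes.

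Genes of reactive glia rose more. Of 10 such genes 8 rose (80%, against 12.3% called of all genes tested). Among them was Stat3, the most abundant over the 8 libraries, from 146 ± 10.7 to 369 ± 33.5 CPM (SD, n = 4). The call for Gfap was lost with the replicate block and without Bbs8+/+ replicate 1, 2 or 4 or Bbs8-/- replicate 1 or 2 (2.12, 2.01, 2.63, 2.31 and 2.19, against 2.41 with all). Edn2, at 0 counts in every Bbs8+/+ library, did not pass the filter once a Bbs8-/- library was left out. The summed level was 234, 273, 317 and 274 CPM in Bbs8+/+ and 1404, 1451, 1432 and 1332 CPM in Bbs8-/- libraries. The part of glial RNA in the rise of Sox9 was not tested. In bulk RNA, more cells of a type and more RNA per cell cannot be told apart, nor can fewer cells and less RNA per cell.

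**Figure D2:**
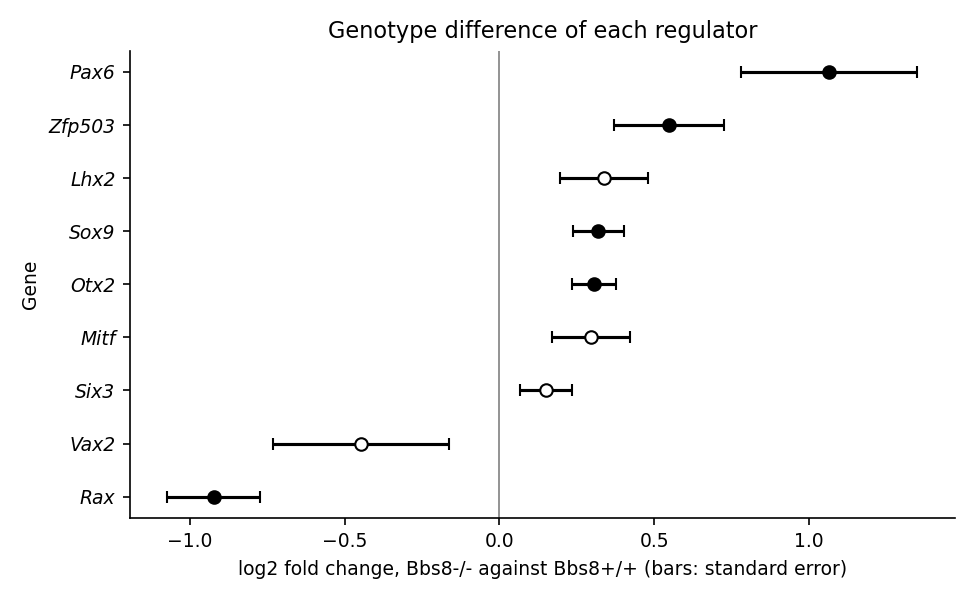
Log2 fold change of Bbs8-/- against Bbs8+/+ libraries for the 9 tested regulators, with bars of 1 standard error; filled points passed an adjusted p of 0.05 and open points did not. Pax6 is farthest to the right at 1.07 and Rax farthest to the left at -0.92.

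Among the eye field factors, Pax6 and Rax showed the largest differences of all the regulators, in opposite directions. Pax6, a paired-box factor required for eye formation, lies on chromosome 2 from 105668900 to 105697364. It had 30, 30, 23 and 27 counts in Bbs8+/+ and 50, 61, 61 and 54 in Bbs8-/- libraries. Every Bbs8-/- library thus had more counts than any Bbs8+/+ library, although the gene was the lowest of the 9 in Bbs8+/+ RPE. The rise was 2.09-fold, which is 1.07 on the log2 scale with a standard error of 0.284 (edgeR, adjusted p = 0.00844), and the call held under every alternative run with adjusted p from 0.00277 to 0.0313.

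Pax6 is known from amacrine, horizontal and ganglion cells, from lens and from the surface epithelium of the eye, and the markers of these cells did not move alike. Of 12 amacrine and horizontal genes 7 were tested and 1, Calb2, rose (14.3%, against 12.3% of all genes tested). The call was lost with limma-voom, with the replicate block and without Bbs8+/+ replicate 2 or 4 or Bbs8-/- replicate 1 or 2 (1.34, 1.29, 1.50 and 1.15, against 1.51 with all). The summed level was 408, 390, 393 and 406 CPM in Bbs8+/+ and 382, 459, 424 and 425 CPM in Bbs8-/- libraries, nearly all from Slc6a9, a glycine transporter gene. Without Slc6a9 it was 21.0, 15.7, 22.1 and 16.0 CPM in Bbs8+/+ and 32.4, 37.27, 29.2 and 35.6 CPM in Bbs8-/- libraries, with no overlap. Chat, Onecut1 and Lhx1 had at most 3 counts in any library. Of 8 ganglion cell genes 5 were tested and Nefm rose (20%, against 12.3% of all genes tested), although its libraries overlapped between genotypes. It was not tested under the filterByExpr filter, and its call was lost with limma-voom, with the replicate block and without Bbs8+/+ replicate 1, 2 or 3 or Bbs8-/- replicate 3 or 4 (1.72, 1.68, 1.80, 1.69 and 1.38, against 1.82 with all). The sum was 55.9, 48.9, 46.6 and 42.0 CPM in Bbs8+/+ and 47.6, 70.6, 84.4 and 104 CPM in Bbs8-/- libraries, with Nefl the most abundant and Pou4f2 at 0 everywhere.

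Lens genes fell. All 16 tested lens genes of 17 were down (100%, against 12.3% called of all genes tested). The list summed to 3394, 3382, 3217 and 3461 CPM in Bbs8+/+ and 454, 450, 504 and 447 CPM in Bbs8-/- libraries. Crygb was the most abundant over the 8 libraries. Gja3, at 0 counts in every Bbs8-/- library, had no adjusted p with DESeq2 and did not pass filterByExpr, nor the filter of 1 CPM once a Bbs8+/+ library was left out. The call for Lim2 was lost without Bbs8+/+ replicate 4 or Bbs8-/- replicate 2 (-0.79 and -0.68, against -0.91 with all).

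Of 7 ocular surface genes 5 were tested and 4 rose, the keratins Krt5, Krt14 and Krt15 and Lad1 (80%, against 12.3% called of all genes tested). The keratins reached 1 CPM in Bbs8-/- libraries alone, so they passed the filter through that genotype and did not pass it once a Bbs8-/- library was left out. All 3 were called with no filter beyond 1 count, but Krt14 had no adjusted p with DESeq2 and did not pass filterByExpr. Krt5 went from 0 counts in every wild-type library to 24, 31, 57 and 35 in the knockout libraries, while the corneal keratin Krt12 was at 0 in all 8. This list summed to 11.2, 12.7, 18.0 and 17.8 CPM in Bbs8+/+ and 82.1, 89.6, 93.6 and 84.9 CPM in Bbs8-/- libraries, with Aldh3a1 the most abundant over the 8 libraries. The part of these cells in the rise of Pax6 was not tested.

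Rax, a homeodomain factor of retinal progenitors that is also present in photoreceptors, lies on chromosome 18 from 65928277 to 65939787. It had 240, 225, 193 and 240 counts in Bbs8+/+ and 109, 114, 109 and 133 in Bbs8-/- libraries. The highest Bbs8-/- library, at 46.5 CPM, stayed well under the lowest Bbs8+/+ library, at 78.9 CPM. The log2 fold change, with a standard error of 0.149, was -0.92 (edgeR, adjusted p = 1.49e-05), a level of 0.527 times that in Bbs8+/+ RPE. Under every alternative run the fall was called, with adjusted p from 3.27e-08 to 0.000256. The antisense gene Raxos1 shares 1604 exon bases with Rax and had between 0 and 19 counts per library.

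Rod genes fell with Rax. Of 14 rod genes 13 were called down and Gngt1 was not called (92.9% called, against 12.3% of all genes tested). Their summed level was 42992, 40525, 40788 and 42185 CPM in Bbs8+/+ and 19087, 18452, 18626 and 18667 CPM in Bbs8-/- libraries, with Sag, the rod arrestin gene, the most abundant. The median log2 fold change of the list was -1.27. Gngt1 was at 433 CPM in Bbs8+/+ replicate 1 and 919 to 1155 CPM in the other Bbs8+/+ libraries, against 684 to 949 CPM in Bbs8-/- libraries.

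Rax fell by about as much as Crx and by less than the rod list. The log2 ratio of Rax to Crx was -2.22 ± 0.161 (SD, n = 4) in Bbs8+/+ and -2.22 ± 0.183 in Bbs8-/- libraries, and the groups overlapped. Relative to the summed rod counts the log2 ratio was -8.97 ± 0.0774 in Bbs8+/+ and -8.74 ± 0.0692 in Bbs8-/- libraries, without overlap. The part of photoreceptor RNA in the fall of Rax was not tested.

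**Figure D3:**
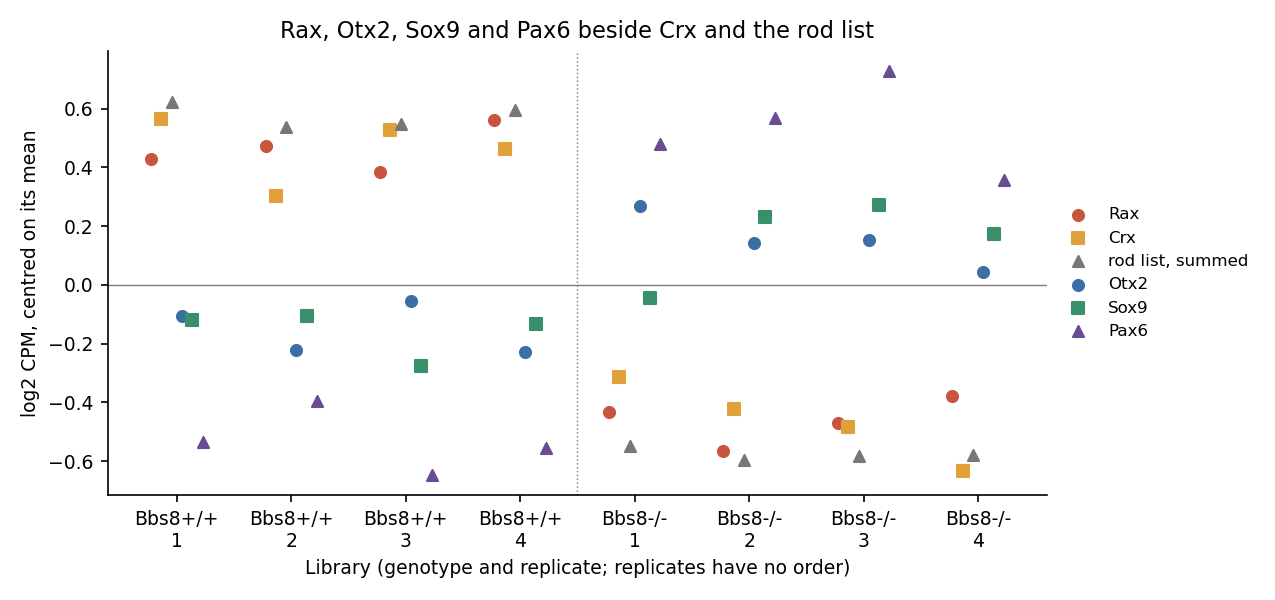
Log2 CPM in each of the 8 libraries, centred on the mean of each series, for Rax, Otx2, Sox9 and Pax6 beside Crx and the summed rod list. Rax, Crx and the rod list lie above 0 in all Bbs8+/+ and below 0 in all Bbs8-/- libraries, Otx2 and Pax6 the other way round, and Sox9 likewise except for Bbs8-/- replicate 1, which lies just below 0.

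Cone genes did not follow the rod genes. Of 9 cone genes 6 rose and 3 were not called (66.7% called, against 12.3% of all genes tested). The call for Gnat2 was lost without Bbs8+/+ replicate 2 or 3 or Bbs8-/- replicate 1, 2 or 4 (0.60 to 0.68, against 0.70 with all) and that for Opn1mw without Bbs8+/+ replicate 2 or 4 or Bbs8-/- replicate 1, 2 or 3 (0.77 to 0.85, against 0.84). Their sum was 210, 203, 256 and 226 CPM in Bbs8+/+ and 499, 558, 548 and 559 CPM in Bbs8-/- libraries, with Gnb3, which encodes a G protein subunit of cones and bipolar cells, the most abundant over the 8 libraries. Of 9 bipolar genes 8 were tested and 1, Prkca, fell (12.5%, against 12.3% over all genes). The bipolar list summed to 147, 134, 141 and 136 CPM in Bbs8+/+ and 126, 125, 98.0 and 99.2 CPM in Bbs8-/- libraries, Prkca being the most abundant gene. Without Prkca the sum was 27.1, 21.3, 34.3 and 30.5 CPM in Bbs8+/+ and 37.0, 46.6, 27.6 and 34.9 CPM in Bbs8-/- libraries, with overlap.

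Lhx2, a LIM-homeodomain factor needed for the optic vesicle, had 178, 182, 157 and 174 counts in Bbs8+/+ and 211, 210, 225 and 210 in Bbs8-/- libraries. The genotypes did not overlap, at 60.3 to 67.9 CPM and 73.4 to 90.0 CPM. The log2 fold change of 0.34 (standard error 0.142) was nevertheless not called, with an adjusted p of 0.126 in edgeR. It passed the threshold with scaling by library size alone (0.43, adjusted p = 0.0397), and over all alternatives the adjusted p ran from 0.0397 to 0.268.

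Six3, a homeodomain factor of the forebrain and eye field, was the second most abundant regulator. It had 2600, 2036, 1617 and 2115 counts in Bbs8+/+ and 1796, 2513, 2048 and 2762 in Bbs8-/- libraries. The genotypes overlapped widely, with the highest Bbs8+/+ library at 880 CPM and the lowest Bbs8-/- library at 737 CPM. The log2 fold change was 0.15 (standard error 0.0839, adjusted p = 0.294, edgeR), and over all alternatives the adjusted p ran from 0.0368 to 0.686. It was 0.22 and passed the threshold without Bbs8+/+ replicate 1 (adjusted p = 0.0368), 0.08 without Bbs8+/+ replicate 3 and 0.09 without Bbs8-/- replicate 4. Under scaling by library size alone it was 0.24 and not called (adjusted p = 0.0516, edgeR). The antisense gene Six3os1 shares 106 exon bases with Six3 and was not in the count tables. If strand was ignored, its reads from that stretch could be counted as Six3, which was not tested. The antisense gene Gm28528 shares 168 exon bases and had at most 2 counts in any library.

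Vax2 and Zfp503 take part in patterning the optic cup and in closure of the optic fissure. Vax2, a factor of the ventral retina, had 65, 41, 39 and 70 counts in Bbs8+/+ and 41, 30, 32 and 51 in Bbs8-/- libraries. The groups overlapped, and the log2 fold change of -0.45 (standard error 0.284) had an adjusted p of 0.371 in edgeR. Without Bbs8+/+ replicate 4 it was -0.29. Its counts varied more between libraries of a genotype than those of Rax or Pax6, with an SD of 25.8% of the mean in Bbs8+/+ RPE.

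Zfp503, a zinc finger repressor required for RPE development, lies on chromosome 14 from 21983959 to 21989601. It had 81, 133, 102 and 128 counts in Bbs8+/+ and 136, 178, 151 and 179 in Bbs8-/- libraries. All Bbs8-/- libraries lay above all Bbs8+/+ libraries, and Bbs8+/+ replicate 1 was the lowest, at 27.4 CPM against 41.7 to 49.6 CPM in the others. Zfp503 rose 1.46-fold (log2 fold change 0.55, standard error 0.179, adjusted p = 0.0370, edgeR). Without Bbs8+/+ replicate 1 it was 0.39 and not called (adjusted p = 0.160). The call was also lost, at log2 fold changes close to that of all libraries, without Bbs8+/+ replicate 3 (0.55, adjusted p = 0.0712) and without Bbs8-/- replicate 2, 3 or 4 (0.53, 0.55 and 0.53, adjusted p = 0.0887, 0.0675 and 0.0837). Over all alternatives the adjusted p ran from 0.0141 to 0.160.

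The genes whose profile over the 8 libraries was most like that of each regulator were found among 8423 genes whose mean reached 10 CPM, by the root mean square difference of log2 CPM centred on the gene's mean. For Rax they were Nr2e3 (0.0466), Rp1l1 (0.0635) and Klhl18 (0.0688). Nr2e3 and Rp1l1 are photoreceptor genes. For Otx2 they were Atp1b1, Rnpc3 and Sorl1 (0.0560 to 0.0654), and for Sox9 Adipor2, Pdcd4 and Cavin2 (0.0499 to 0.0597). Rnpc3 was also among the 3 nearest to Lhx2, with Cltrn and Slc22a17 (0.0508 to 0.0697).

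The remaining regulators had less close neighbours. For Pax6 they were Col8a1, Apold1 and Gadd45g (0.114 to 0.126), for Zfp503 Vegfc, Gch1 and Rnaset2a (0.0986 to 0.107), and for Vax2 Cd34, Rfc1 and Frat1 (0.121 to 0.155). Mitf was nearest to Scoc, Tns1 and Bcl9l (0.0826 to 0.0887) and Six3 to Hivep2, Ssr4 and Trip12 (0.0762 to 0.0797). Low counts can widen such differences, which was not tested, and Six3 had 1617 to 2762 counts per library. The neighbours are given as a description of 8 libraries that fall into 2 genotypes.

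Other regulators of the optic vesicle, retina and RPE were counted from a list of 32 genes. Of the 27 tested, none rose, 3 fell and 24 were not called. The share called was 11.1%, against 12.3% over all genes, and the median log2 fold change was 0.24, against 0.02. At an unadjusted p under 0.05 edgeR gave 2 genes up, and DESeq2 and limma-voom called 0 up after adjustment. Those that fell were Crx and the nuclear receptors Rorb and Rora, which act in photoreceptors among other cells. Rorb went from 655 ± 51.1 to 361 ± 16.5 CPM (SD, n = 4; log2 fold change -0.86, adjusted p = 1.54e-10, edgeR) and Rora from 487 to 368 CPM (-0.40, standard error 0.0858, adjusted p = 0.000784). With scaling by library size alone 1 gene of the list, Ctnnb1, was called up.

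Targets of Mitf, Otx2 or Sox9 were counted from a list of 20 genes of pigment, the visual cycle and other RPE functions, all of them tested. In this list 5 rose, 3 fell and 12 were not called, and the median log2 fold change was -0.02. Without Bbs8+/+ replicate 4, 3 rose, and 6 rose, with Oca2 added, under scaling by library size alone, scaling on the RPE list and filterByExpr. The share called was 40% against 12.3% of all genes tested, and the direction was mixed among targets of the same factors.

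Among pigment genes, Tyr and Pmel moved apart. Tyr, the tyrosinase gene and a Mitf target, had 405, 398, 347 and 382 counts in Bbs8+/+ and 533, 541, 481 and 524 in Bbs8-/- libraries (log2 fold change 0.47, adjusted p = 0.00121, edgeR). Pmel, which encodes the fibril protein of melanosomes and is also a Mitf target, had 662, 715, 691 and 647 counts in Bbs8+/+ and 390, 480, 397 and 494 in Bbs8-/- libraries (-0.61, adjusted p = 2.04e-05). Neither gene overlapped between genotypes. Mlana (0.54, adjusted p = 0.0166) and Slc24a5 (0.29, adjusted p = 0.0279) also rose. The call for Mlana was lost without Bbs8+/+ replicate 2 or 4 or Bbs8-/- replicate 3 (0.51, 0.44 and 0.45), and that for Slc24a5 without Bbs8+/+ replicate 3 or 4 or Bbs8-/- replicate 1, 2 or 4 (0.26, 0.29, 0.28, 0.30 and 0.26). Dct, the most abundant pigment gene at 3726 ± 203 and 3566 ± 136 CPM (SD, n = 4), was not called.

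Of the visual cycle genes in the list, 2 fell by small amounts. Rpe65, the retinoid isomerase, went from 4640 ± 211 to 3916 ± 38.1 CPM (SD, n = 4; log2 fold change -0.24, adjusted p = 0.000467, edgeR) and Rdh5, a retinol dehydrogenase, from 2508 ± 29.7 to 2100 ± 18.7 CPM (-0.26, adjusted p = 0.000896). Lrat (-0.14, adjusted p = 0.233), Rlbp1 and Rgr were not called. Ttr rose from 20932 ± 540 to 31748 ± 1397 CPM (0.60, adjusted p = 3.35e-16), and the channel gene Trpm3 from 326 ± 20.7 to 492 ± 55.6 CPM (0.59, adjusted p = 3.74e-06). Pmel, Rpe65 and Rdh5 were called down and Ttr, Trpm3 and Tyr up under every alternative run.

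Further marker lists were summed for other cells in or near the eyecup. The 7 melanocyte and Schwann cell genes gave 138 to 187 CPM in Bbs8+/+ and 172 to 188 CPM in Bbs8-/- libraries, nearly all from Sox10, and none was called. Erbb3 had at most 3 counts in any library. The 6 fibroblast genes gave 1032 to 1390 CPM and 970 to 1157 CPM, with Dcn the most abundant over the 8 libraries. Col1a1 (-0.37) and Col3a1 (-0.49) were called down (33.3% of the list, against 12.3% called of all genes tested). Both calls were lost with scaling by library size alone and that of Col1a1 with scaling on the RPE list. Col1a1 was not called without Bbs8+/+ replicate 2 or 4 or Bbs8-/- replicate 1 or 2 (-0.33, -0.31, -0.27 and -0.36), nor Col3a1 without Bbs8+/+ replicate 3 or 4 or Bbs8-/- replicate 2 (-0.40, -0.45 and -0.35). The 6 erythrocyte genes, led by Hbb-bs, fell from 5154 to 5718 CPM in Bbs8+/+ to 1985 to 2218 CPM in Bbs8-/- libraries, with 5 of 6 called (83.3%). The 9 microglia genes, led by Csf1r, gave 346 to 457 CPM and 325 to 361 CPM, and the 7 endothelial genes, led by Kdr, 25.3 to 34.7 CPM and 28.7 to 36.7 CPM, with none called in either list. At an unadjusted p under 0.05 edgeR gave 1 gene of the melanocyte list, 1 of the microglia list and 0 of the endothelial list, and DESeq2 and limma-voom called 0 in each after adjustment. The 4 ciliary margin genes, led by Zic1 over the 8 libraries, gave at most 6.29 CPM in any library. The part of these cells in the results was not tested.

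**Figure D4:**
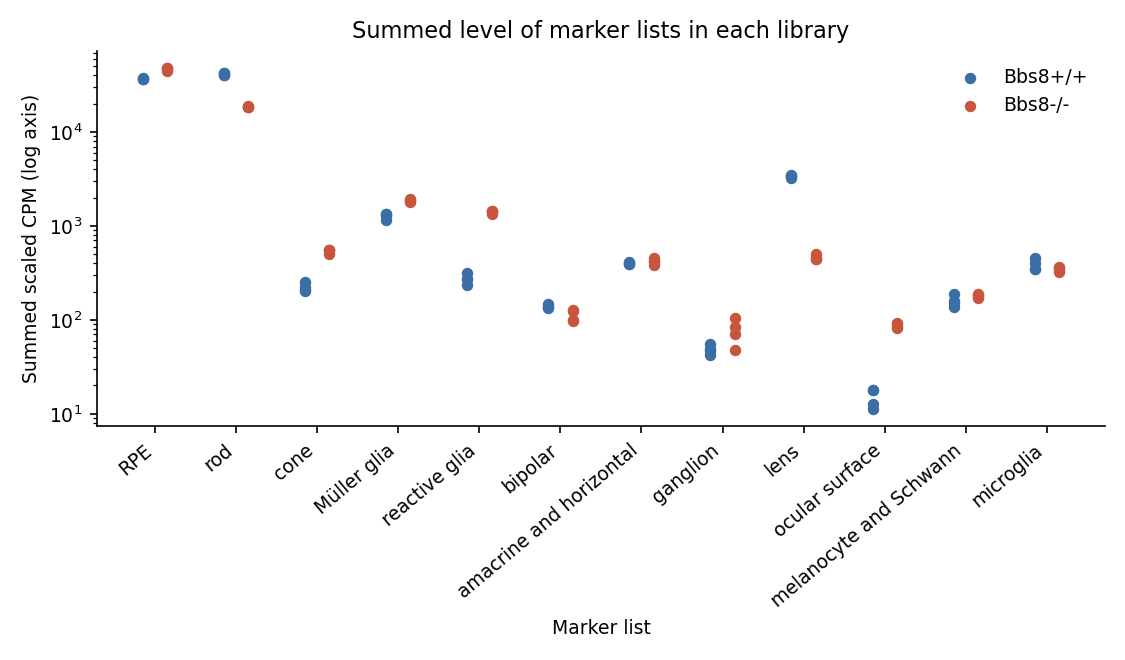
Summed scaled CPM (log axis) of 12 marker lists in each library, with a point for each library. The rod, bipolar and lens lists are lower in all 4 Bbs8-/- libraries than in all 4 Bbs8+/+ libraries. The RPE list, through Ttr, and the cone, Müller glia, reactive glia and ocular surface lists are higher in all 4.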

How the data were processed

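RPE of Bbs8+/+ and Bbs8-/- mice at P29 was sequenced with the QuantSeq 3′ protocol, in 4 libraries per genotype. Reads trimmed and aligned by the authors (STAR, mm10) were deposited as counts of uniquely mapped reads per Ensembl gene, not normalized. Rows that name no gene were left out of library sizes. Reads that did not map uniquely made up 32.8% to 34.5% of a library. Reads outside genes made up 17.0% to 18.4% of Bbs8+/+ and 19.8% to 20.6% of Bbs8-/- libraries, without overlap. Genes detected numbered 14115 to 14496 in Bbs8+/+ and 13657 to 14084 in Bbs8-/- libraries. The part of these differences in the results was not tested. Symbols and coordinates came from the GENCODE M21 annotation of GRCm38, the same assembly, and 30934 of 31053 identifiers matched. Promoter windows came from RefSeq (GRCm38.p6).

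A gene was tested if 4 or more of the 8 libraries reached 1 CPM. The fit used R 4.3.3 and edgeR 4.0.16: TMM scaling, the two-sided quasi-likelihood F test on genotype, and Benjamini-Hochberg adjustment over all 12889 genes, with a threshold of 0.05. Standard errors follow from each estimate and its F statistic. The test was checked on simulated data. Groups came from the labels alone. Alternatives were DESeq2 1.42.0, limma-voom (limma 3.58.1), other scalings and filters, a replicate block, and each library left out in turn.

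The members and lists were chosen with earlier results of these data known. Genes named are the members, Ttc8, genes called in the lists of related regulators and targets (at most 6 in each direction), the paralogs Tfeb, Tfe3, Otx1 and Crx, the most abundant gene of each marker list, and the 3 genes nearest in profile to each member with a mean of at least 10 CPM. Other genes, among them the sex-linked, antisense and defining marker genes and Ctnnb1, were named after their values were seen. Libraries were compared in pairs by a chi-square statistic of their counts, which per degree of freedom was 14.4 to 21.6 between genotypes. Within Bbs8+/+ it was 5.76 to 7.04 for pairs with replicate 1 and 2.83 to 3.32 for the others, and within Bbs8-/- 4.14 to 5.01. The libraries of each pair thus differed by more than counting noise. Reads had no molecular identifiers, so this does not tell separate animals from libraries made again from the same RNA.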

Additional observations from a re-analysis of the deposited data

Results flagged for a closer look

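Of 123 groups of 4 libraries examined, 5 had a library whose gap to the nearest of the others took up most of the range of its group, and chance gives about 5% of groups. Among the regulators this was Sox9 in Bbs8+/+ replicate 3, at 442 CPM against 489 to 498 CPM in the others. Sag in Bbs8+/+ replicate 1 was at 10284 CPM, above 9181 to 9356 CPM in the others. Bbs8-/- replicate 1 was low for Csf1r, at 235 CPM against 270 to 274 CPM, and for the endothelial list, at 28.7 CPM against 36.0 to 36.7 CPM. The lens list in Bbs8-/- replicate 3 summed to 504 CPM, above 447 to 455 CPM in the other Bbs8-/- libraries.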

How the results depend on the processing

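Ttc8, Otx2, Sox9, Pax6 and Rax kept their direction and their call under all 16 alternatives, and no tested regulator changed direction. With each library left out in turn, 3 to 5 regulators were called up and 1 down, and 553 to 645 genes were up and 689 to 847 down over all genes. The target genes called up ranged from 3 to 5 in these fits, the lowest without Bbs8+/+ replicate 4, and those called down from 3 to 4. Under the other alternatives 5 or 6 were called up and 3 down. With a library left out the related regulators stayed at 0 up and 3 down, and the log2 fold change of Ttc8 lay between -3.49 and -3.06.

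Scaling by library size alone raised the median log2 fold change by 0.09 and called 1005 genes up and 657 down, so that 60.5% of the calls were up against 44.5% in the 704 up and 877 down of TMM. It called 6 regulators up, with Mitf and Lhx2 added, and 1 related regulator up. Scaling on the RPE marker list alone gave 834 up and 694 down (54.6% up) and called the same 4 regulators up and 1 down.

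The replicate numbers did not pair the libraries: deviations of same-numbered libraries correlated at -0.0556 to 0.00551 across genes, and not every library correlated best with its own number. With the replicate block 650 genes were up and 827 down, 4 regulators were up and 1 down, and no regulator changed its call.

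Depth limits Tfec, with 0 to 3 counts per library, and Pax6 and Vax2, which rest on 23 to 70 counts per library. No setting bears on the mixed sex-linked transcripts or on the strand of counting.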
